A study of Mus musculus with 22 samples.

Results

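Lap2alpha regions were compared with the regions of the chromatin remodellers BRG1 and CHD4 in dermal fibroblasts of wildtype (WT) genotype from the mouse, a connective-tissue cell of the skin. The comparison used 6 of the 22 libraries of the series, 18 of which came with a list of regions used here. The method was ChIP-seq, in which DNA crosslinked to a protein is pulled down with an antibody and sequenced. Lap2alpha was precipitated with antibody 1H11, and no antibody name was given for BRG1 or CHD4. All 6 libraries came from cells labelled WT, grown in DMEM with fetal calf serum and fixed with both DSG and formaldehyde. Chromatin was sonicated for 16 or 20 cycles, with 1 library for each protein and length, and lists were compared only at the same length unless stated. The series also holds cells without Lap2alpha (Lap2alpha KO) and lists of lamin A/C from antibodies 3A6 and E1 in both genotypes. The KO lists of BRG1 and CHD4 and the lamin A/C lists were used here to describe the classes, again with 1 library per group. Whether libraries came from the same culture, and how many animals or clones the cells stand for, is not given in the sources used here. Of 21883 protein-coding genes, 1665 had a Lap2alpha region within 1 kb of a gene end at 16 cycles and 4343 at 20 cycles. These genes were split into those that also had BRG1 and CHD4 there, those with 1 remodeller and those with Lap2alpha alone.

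Lap2alpha is the nucleoplasmic member of the LAP2 family, which is encoded by Tmpo. Unlike the membrane-bound LAP2 proteins it lies in the nuclear interior, where it binds A-type lamins and chromatin. BRG1 (Smarca4) is an ATPase of SWI/SNF complexes, which slide and evict nucleosomes and are known for opening promoters and enhancers. CHD4 is the ATPase of the NuRD complex, which joins nucleosome remodelling to histone deacetylation and is found at active as well as silenced regulatory sites.

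The promoters of 5 genes are shown as examples of Lap2alpha with both remodellers, with BRG1 only and alone. They span 250 bases before to 50 bases after the gene start, 5′ to 3′ on the gene's strand, and come from RefSeq (GRCm38.p6), which gave a promoter for 17491 of the 21883 genes (79.9%). Capitals mark matches, on either strand, to motifs of transcription factors: TGANTCA for AP-1, TGACGTCA for the cyclic AMP response element (CRE), CCAAT for the factor NF-Y and GGGCGG for the SP and KLF factors (SP/KLF). The others were CGGAAG for the ETS factors, TATAAA for the box of that name, CACGTG for the E-box and CATTCCA for the TEAD factors. Ankrd1 (chr19:36119795-36120094, minus strand) and Dusp1 (chr17:26508423-26508722, minus strand) had Lap2alpha with both remodellers at both sonication lengths.
Ankrd1: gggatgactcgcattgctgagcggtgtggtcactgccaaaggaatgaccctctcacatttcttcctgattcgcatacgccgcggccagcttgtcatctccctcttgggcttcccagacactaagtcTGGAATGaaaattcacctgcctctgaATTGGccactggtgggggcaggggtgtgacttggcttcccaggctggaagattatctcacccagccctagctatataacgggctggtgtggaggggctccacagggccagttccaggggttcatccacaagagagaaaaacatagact
Dusp1: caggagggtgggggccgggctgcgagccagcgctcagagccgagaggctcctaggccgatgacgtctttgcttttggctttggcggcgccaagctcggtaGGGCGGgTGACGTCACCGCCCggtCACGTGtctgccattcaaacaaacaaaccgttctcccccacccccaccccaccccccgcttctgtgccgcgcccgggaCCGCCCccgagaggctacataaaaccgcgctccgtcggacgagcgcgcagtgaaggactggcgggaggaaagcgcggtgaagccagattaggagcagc
Gstm2 (chr3:107986371-107986670, minus strand) had Lap2alpha with BRG1 and no CHD4 at both lengths, and was chosen after its values were seen.
Gstm2: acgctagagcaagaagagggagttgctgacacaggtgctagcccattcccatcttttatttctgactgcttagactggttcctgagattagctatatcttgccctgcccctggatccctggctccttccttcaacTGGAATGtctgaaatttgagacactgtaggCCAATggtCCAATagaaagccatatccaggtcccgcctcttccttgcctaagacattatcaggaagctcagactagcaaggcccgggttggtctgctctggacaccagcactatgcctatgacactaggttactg
Cd209d (chr8:3878450-3878749, minus strand) and Agtr2 (chrX:21484374-21484673, plus strand) had Lap2alpha and neither remodeller at both lengths.
Cd209d: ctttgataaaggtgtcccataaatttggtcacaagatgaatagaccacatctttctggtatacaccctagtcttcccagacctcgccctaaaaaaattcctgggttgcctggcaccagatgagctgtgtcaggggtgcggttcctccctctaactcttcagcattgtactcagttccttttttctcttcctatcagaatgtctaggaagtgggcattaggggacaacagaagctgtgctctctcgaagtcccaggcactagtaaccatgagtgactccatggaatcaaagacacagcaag
Agtr2: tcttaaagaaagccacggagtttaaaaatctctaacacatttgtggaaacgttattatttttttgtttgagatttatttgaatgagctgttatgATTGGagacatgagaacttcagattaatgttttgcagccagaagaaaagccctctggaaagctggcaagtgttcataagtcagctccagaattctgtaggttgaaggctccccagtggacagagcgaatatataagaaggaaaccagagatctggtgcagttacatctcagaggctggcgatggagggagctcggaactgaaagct
All 300 bases of the Ankrd1 promoter lay under a region in each of the 6 lists. In the Dusp1 promoter Lap2alpha covered 300 bases at 16 cycles and 225 at 20 cycles, while BRG1 covered 0 and 179 and CHD4 0 and 300. BRG1 covered the whole Gstm2 promoter at both lengths, where Lap2alpha covered 114 and 69 bases. Lap2alpha covered 246 and 0 bases of the Cd209d promoter and 198 and 300 bases of the Agtr2 promoter, with neither remodeller on any base. GC content was 54.7% for Ankrd1, 67% for Dusp1, 50% for Gstm2, 47% for Cd209d and 41.3% for Agtr2. The Dusp1 promoter held 3 SP/KLF matches, 1 CRE match and 1 E-box match, the CRE match adjoining an SP/KLF match without overlapping it. Such matches were common: of all promoters, 46.3% held an SP/KLF match, 39.2% NF-Y, 21.5% ETS, 13.3% a TATA box, 7.91% an E-box, 7.03% AP-1, 3.8% TEAD and 2.33% CRE. A match is a stretch of letters and does not show that a factor was bound.

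The lists differed in length and region width. The Lap2alpha lists held 67557 regions at 16 cycles and 91620 at 20 cycles, with median widths of 236 and 270 bp. BRG1 had 72225 and 205999 regions with median widths of 526 and 356 bp, and CHD4 49441 and 109769 with median widths of 374 and 350 bp. Read depth is unknown, and the number of regions is not an amount of protein. As a check of the labelled cell type, 27 of 40 fibroblast and matrix genes had BRG1 at a gene end at 16 cycles, against 1 of 20 keratinocyte, 1 of 14 endothelial, 1 of 16 leukocyte and 3 of 19 muscle, adipocyte and melanocyte genes, and 36.2% of all genes. At 20 cycles these counts were 38, 9, 5, 10 and 9, beside 63% of all genes. Of these 5 lists only the fibroblast list was clearly above that share, and the leukocyte list was close to it (62.5%). The share was not particular to fibroblast genes. At 16 cycles BRG1 was at 68% of housekeeping and 67.1% of cytoplasmic ribosomal protein genes, beside 67.5% of the fibroblast list. Region lists hold no RNA, so this describes occupancy and not expression.

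Lap2alpha genes held both remodellers more often than genes in general did. At 16 cycles 688 of 1665 Lap2alpha genes had BRG1 and CHD4 (41.3%, 95% Wilson interval 39.0 to 43.7), where 15.9% of all genes had both. Another 295 (17.7%) had BRG1 only and 60 (3.6%) had CHD4 only, so that 355 (21.3%) had 1 remodeller. The remaining 622 (37.4%, 35.1 to 39.7) had Lap2alpha alone, where 62.1% of all genes had neither remodeller. Lap2alpha itself was at 7.61% of all genes, BRG1 at 36.2% and CHD4 at 17.6%.

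At 20 cycles the class with both remodellers was the largest by far. It held 3051 of 4343 Lap2alpha genes (70.3%, 68.9 to 71.6), where 51.4% of all genes had both. There were 398 genes (9.16%) with BRG1 only, 120 (2.76%) with CHD4 only and 774 (17.8%, 16.7 to 19.0) with Lap2alpha alone, where 33.8% of all genes had neither. Lap2alpha was at 19.8% of all genes in this list set, BRG1 at 63% and CHD4 at 54.6%. The bar chart of gene classes shows the shift from 16 to 20 cycles, along which the BRG1 and CHD4 lists also grew. Intervals cover counting error only, and 225 of the 1665 genes (13.5%) and 948 of the 4343 (21.8%) shared a Lap2alpha region with another gene. When whole gene bodies were taken in place of gene ends, the class with both held 65.9% and 83.3% and the class with Lap2alpha alone 16.4% and 6%.

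**Figure D1:**
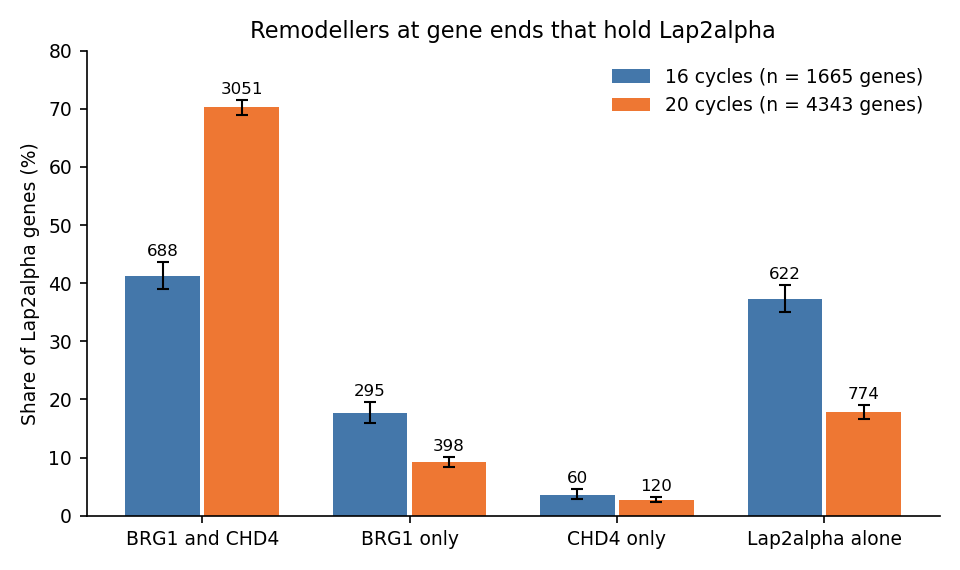
Share of Lap2alpha genes (%) in each remodeller class at 16 cycles (1665 genes) and 20 cycles (4343 genes), with 95% Wilson intervals and the number of genes above each bar. Genes with both remodellers make up 41.3% and 70.3%, and genes with Lap2alpha alone 37.4% and 17.8%.

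Read the other way, genes with both remodellers carried Lap2alpha most often and genes with neither least often. At 16 cycles Lap2alpha was at 19.8% (18.5 to 21.1) of the 3483 genes with both remodellers and at 4.57% (4.24 to 4.94) of the 13599 genes with neither. Genes with CHD4 only had a share of 16.7% (13.2 to 20.9), and genes with BRG1 only had 6.64% (5.95 to 7.41), below the 7.61% of all genes. The intervals of the classes with BRG1 only and CHD4 only did not overlap. At 20 cycles Lap2alpha was at 27.1% (26.3 to 27.9) of genes with both, 15.7% (14.3 to 17.2) with BRG1 only, 17.1% (14.5 to 20.1) with CHD4 only and 10.5% with neither. Here the intervals of BRG1 only and CHD4 only overlapped.

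The gap between genes with both and with neither was 15.2 percentage points at 16 cycles and 16.6 at 20 cycles. With the remodeller lists of both lengths joined, the gap for Lap2alpha at 16 cycles was 3.81 points. Of the 13599 genes with neither remodeller at 16 cycles, 47% had one in a 20-cycle list. Over whole gene bodies, where long genes can hold all 3 proteins far apart, the gap was 48.5 and 51 points. On autosomes alone the order was the same, with 19.1% against 3.87% at 16 cycles and 26.5% against 10.5% at 20 cycles. X-linked genes stood higher in each class, as the plot of Lap2alpha shares by remodeller class shows. At 16 cycles their order differed, with 50% (18 of 36) with CHD4 only and 42.6% with both. The intervals of these 2 shares overlapped (34.47 to 65.53 and 33.04 to 52.65).

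**Figure D2:**
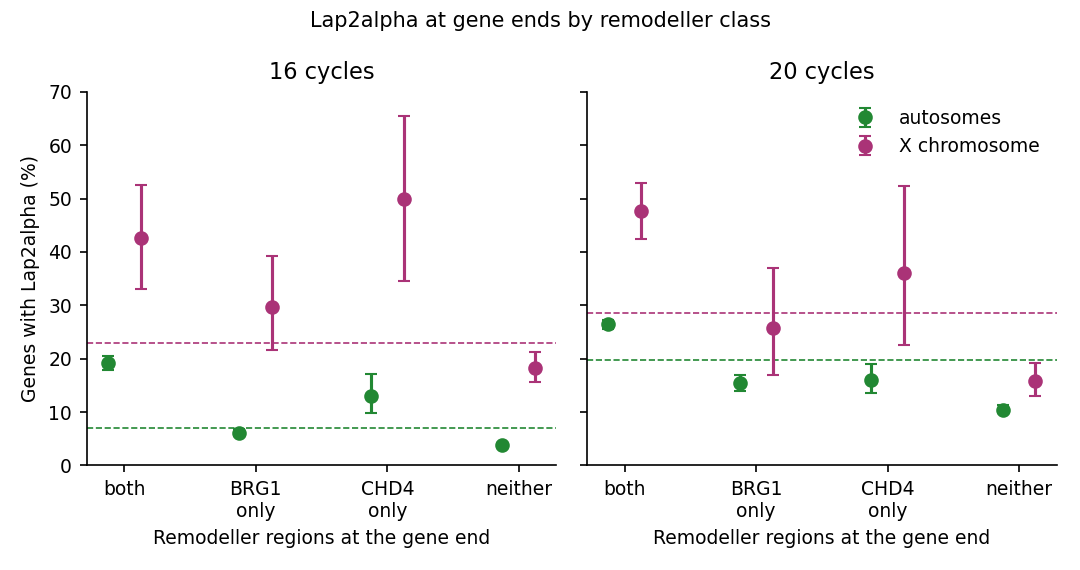
Share of genes with Lap2alpha at a gene end (%) by the remodellers present there, on autosomes (green) and the X chromosome (purple), at 16 and 20 cycles; bars are 95% Wilson intervals and dashed lines the share over all genes of those chromosomes. With both remodellers the share is 19.1% and 26.5% on autosomes and 42.6% and 47.6% on the X chromosome.

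BRG1 was found at 59.0% of Lap2alpha genes and 34.3% of genes without Lap2alpha at 16 cycles, and at 79.4% and 59.0% at 20 cycles. CHD4 was found at 44.9% against 15.3%, and at 73.0% against 50.1%. In percentage points, CHD4 thus differed more than BRG1 between genes with and without Lap2alpha at each length.

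At most genes with all 3 proteins the regions touched each other. A single Lap2alpha region overlapped both a BRG1 and a CHD4 region by at least 1 bp at 433 of 688 genes at 16 cycles (62.9%) and at 2111 of 3051 at 20 cycles (69.2%). No Lap2alpha region overlapped either remodeller at 143 genes (20.8%) and 553 genes (18.1%), where Lap2alpha lay apart from both near the gene ends. Whether BRG1 and CHD4 overlapped each other at these genes was not tested. Where BRG1 was the only remodeller, the regions overlapped at 46.8% and 53% of genes, and where CHD4 was the only one, at 66.7% and 48.3%.

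Across the genome most Lap2alpha regions lay away from both remodellers. At 16 cycles 56470 of 67557 regions (83.6%) overlapped neither, 5545 (8.21%) overlapped both, 3114 (4.61%) BRG1 only and 2428 (3.59%) CHD4 only. At 20 cycles 69041 of 91620 (75.4%) overlapped neither, 8597 (9.38%) both, 10492 (11.5%) BRG1 only and 3490 (3.81%) CHD4 only. The gene-end classes therefore describe a small part of the Lap2alpha map: 2.65% and 4.88% of Lap2alpha regions lay at a gene end, 1789 and 4475 regions in number.

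The overlaps that did occur were more frequent than at nearby positions. Moved by 10 kb to either side, the same Lap2alpha regions met BRG1 in 2.95% of cases in place of 12.8% at 16 cycles, and in 6.74% in place of 20.8% at 20 cycles. For CHD4 the shares were 2.23% in place of 11.8%, and 4.06% in place of 13.2%. For both remodellers at once they were 1.36% in place of 8.21%, and 2.54% in place of 9.38%. The ratios of observed to shifted shares were 4.35 and 3.09 for BRG1, 5.28 and 3.25 for CHD4, and 6.05 and 3.7 for both together. The ratio was thus higher for the joint overlap than for BRG1 at each length, and lower at 20 than at 16 cycles for all 3.

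The overlap centred on the Lap2alpha regions, as the profile of remodeller coverage shows. At 16 cycles 12.5% of Lap2alpha centres lay under BRG1 and 11.4% under CHD4. At 1 kb downstream in coordinate order the shares had dropped to 1.5% and 1.11%, below the 2.03% and 1.39% found 10 kb away. At 20 cycles BRG1 covered 20.1% of centres, 3.1% of positions at 1 kb and 4.3% at 10 kb, and CHD4 12.6%, 2.22% and 2.57%. The remodellers were thus listed less often 1 kb from a Lap2alpha centre than 10 kb from it, at both lengths.

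**Figure D3:**
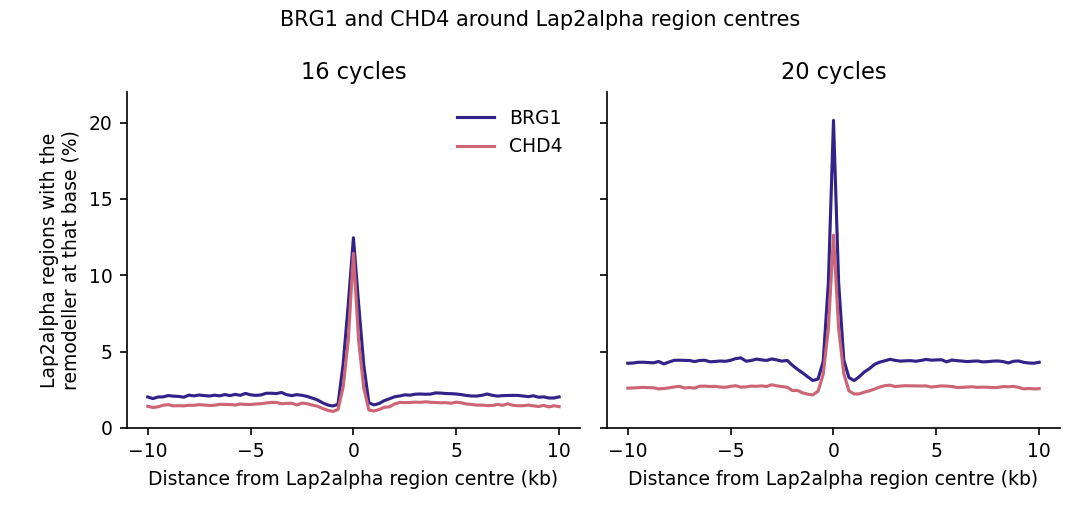
Share of Lap2alpha regions (%) with a BRG1 or CHD4 region at each distance (kb) from the Lap2alpha region's centre, at 16 and 20 cycles. BRG1 reaches 12.5% and 20.1% and CHD4 11.4% and 12.6% at the centre, and both dip near 1 kb to values below those at 10 kb.

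The median distance from a Lap2alpha region to the nearest BRG1 region was 18.1 kb at 16 cycles and 5.14 kb at 20 cycles, and to the nearest CHD4 region 16.3 and 13.1 kb. Among regions that overlapped, the median distance between centres was 0 bp for each remodeller and length. Of these, 91.7 to 96.4% lay within 250 bp. How the centres of the deposited intervals were set is not given in the sources used here. Whether that shaped the profile was not tested. The BRG1 overlap varied more with the BRG1 list used than with the Lap2alpha list used. Lap2alpha regions of 16 cycles met BRG1 in 12.8% of cases with the 16-cycle list and 19.5% with the 20-cycle list, and those of 20 cycles in 9.21% and 20.8%. For CHD4 the corresponding shares were 11.8% and 11.4%, and 6.64% and 13.2%.

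Seen from the remodellers, BRG1 regions that also held CHD4 carried Lap2alpha more often than BRG1 regions without it. The shares were 17.0% against 7.48% at 16 cycles and 13.0% against 7.31% at 20 cycles. BRG1 regions with CHD4 were wider, with a median of 800 against 356 bp at 16 cycles. Within 4 classes of BRG1 width the order held in each, with 13.0 to 21.1% against 6.88 to 7.96% at 16 cycles and 8.27 to 15.3% against 6.68 to 8.47% at 20 cycles. CHD4 regions with and without BRG1 were closer to each other at 16 cycles, with Lap2alpha at 16.6% against 14.6%. In the narrowest 3 of 4 width classes that order turned, for example 11.6% with BRG1 against 14.1% without it in the narrowest. At 20 cycles CHD4 regions with BRG1 had the higher share in each width class, and 12.6% against 7.97% over all widths.

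The genes with Lap2alpha and both remodellers at both sonication lengths numbered 318. They were ranked by the bases of their gene-end windows (up to 4000 bp, 1 kb to each side of both ends) under Lap2alpha, taking the smaller value of the 2 lengths. The first 8 named by this rank included stress and growth-response genes. Ankrd1 (chr19:36111965-36119844), a mechanically responsive YAP target, had 2606 and 2827 bp under Lap2alpha at 16 and 20 cycles, 2028 and 3026 bp under BRG1 and 2772 and 2680 bp under CHD4. Each of its Lap2alpha regions, 2 at 16 and 3 at 20 cycles, overlapped BRG1. Dusp1, a phosphatase that switches off MAP kinases, had 2246 and 1857 bp under Lap2alpha, 329 and 1437 under BRG1, and 762 and 2578 under CHD4. Its Lap2alpha coverage was above that of either remodeller at 16 cycles and between them at 20 cycles.

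Jun (chr4:95049036-95052222), a subunit of the transcription factor AP-1, had 1927 and 1570 bp under Lap2alpha, 1554 and 2971 under BRG1 and 1692 and 3516 under CHD4. All 3 of its Lap2alpha regions overlapped both remodellers at each length. Klf6, a zinc finger transcription factor, had 1971 and 1326 bp under Lap2alpha, 3533 and 2722 under BRG1 and 3010 and 3250 under CHD4. Ccn1, a secreted matrix-associated protein and YAP target, had 1516 and 1936 bp under Lap2alpha, 2302 and 3019 under BRG1 and 1344 and 2465 under CHD4. Lap2alpha covered less than BRG1 at Klf6 and Ccn1 at each length.

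Hspa5, the chaperone BiP of the endoplasmic reticulum, had 1790 and 1690 bp under Lap2alpha, 728 and 1858 under BRG1 and 1584 and 1546 under CHD4. Actg1, a cytoplasmic actin, had 1146 and 1285 bp under Lap2alpha, 808 and 2160 under BRG1 and 1732 and 2692 under CHD4. Hmox1, the heme-degrading enzyme induced by oxidative stress, had 1623 and 1106 bp under Lap2alpha, 1254 and 1002 under BRG1 and 260 and 1064 under CHD4. The class medians over 318 genes were 340 and 414 bp under Lap2alpha, which the rank used, 991 and 1403 under BRG1 and 645 and 1332 under CHD4. Hmox1 was below the medians of CHD4 at both lengths, and Dusp1, Hspa5 and Actg1 were below the median of BRG1 at 16 cycles.

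Genes with Lap2alpha and a single remodeller at both lengths were few, 7 with BRG1 and 1 with CHD4. Inhba, which encodes a subunit of activin A, had 198 and 238 bp under Lap2alpha and 276 and 520 under BRG1. Gstm2, a glutathione transferase, had 198 and 108 bp under Lap2alpha and 652 and 872 under BRG1. Vit, which encodes the matrix protein vitrin, had 288 and 329 bp under Lap2alpha and 72 and 650 under BRG1. Ankub1, Ggh and Snap25 were the others named, with 11 to 238 bp under Lap2alpha. Gprasp2 (chrX:135839034-135844730) was the gene with CHD4 only, at 37 and 202 bp under Lap2alpha and 140 and 198 bp under CHD4. Of the 295 genes with BRG1 only at 16 cycles, 193 had no Lap2alpha at 20 cycles and 93 had both remodellers there.

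Lap2alpha alone at both lengths was found at 87 genes, and 26 of these were predicted, receptor-family or zinc finger genes that were counted and not named. Neither remodeller had a region at their ends in any of the 4 lists, as the class requires. Cd209d (chr8:3871824-3878548), a C-type lectin of the CD209 family, had 451 and 675 bp under Lap2alpha. Agtr2 (chrX:21484624-21488833), a receptor for angiotensin II, had 856 and 438 bp, and Serpina7, the thyroxine-binding globulin on the X chromosome, 576 and 430 bp. Nrg1, a growth factor of the neuregulin family, had 440 and 421 bp, and Chil3, a chitinase-like protein of macrophages, 877 and 314 bp. Car1, Csn1s2a and Defb46, a carbonic anhydrase, a milk casein and a beta-defensin, had 306 to 390 bp. The class median was 251 and 302 bp under Lap2alpha, and 24 of its genes (27.6%) were X-linked against 4.41% of all genes.

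**Figure D4:**
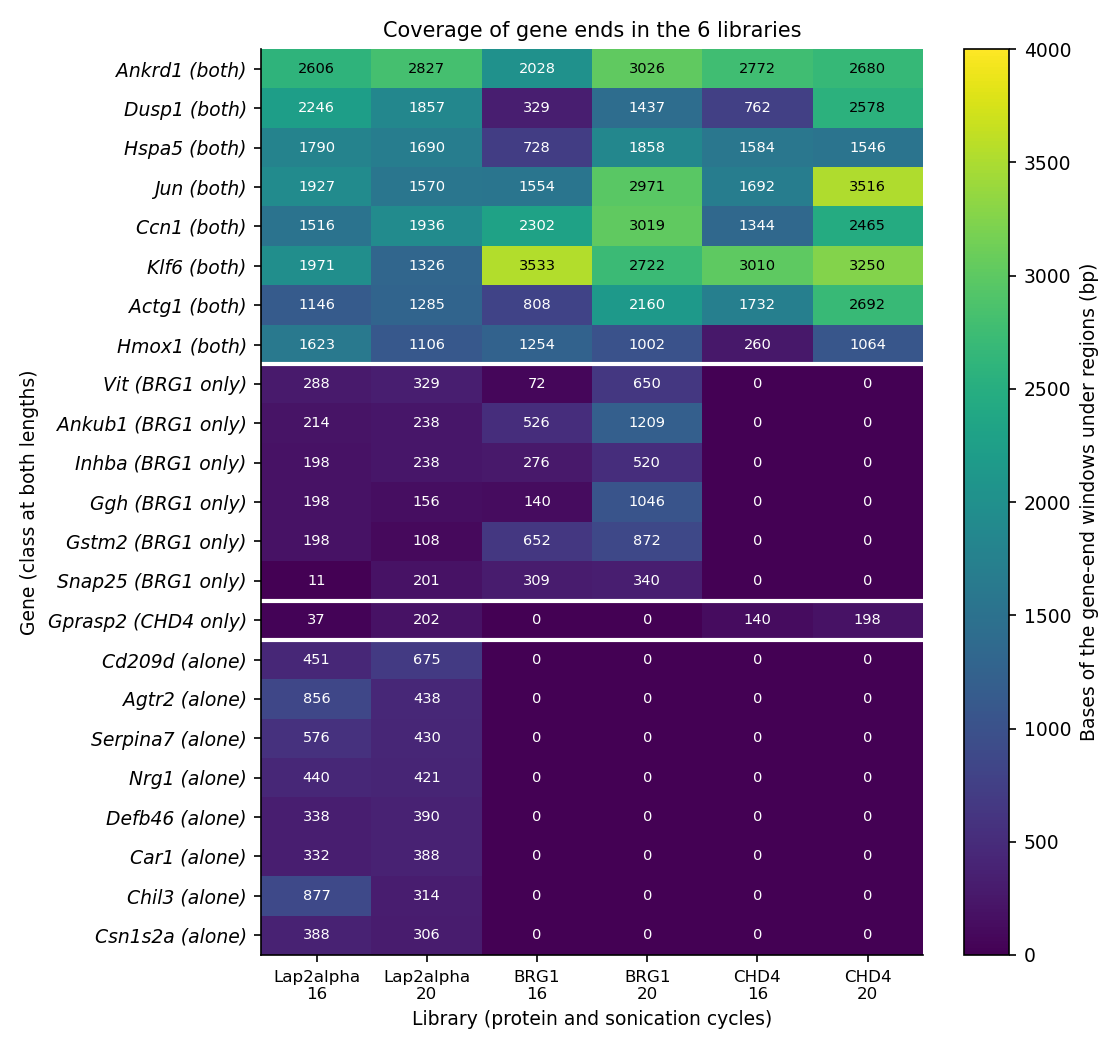
Bases of the gene-end windows (bp, colour and number) under regions of each library for the 23 genes named by class, with the protein and the sonication cycles along the bottom and the class in brackets. The 8 genes with both remodellers have 1106 to 2827 bp under Lap2alpha, and the 8 with Lap2alpha alone 306 to 877 bp. These genes were picked by rank on Lap2alpha coverage itself, so the 2 ranges do not compare the classes. Medians of the whole classes were closer, at 340 and 414 bp with both and 251 and 302 bp with Lap2alpha alone.

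Of the 4 genes that encode the proteins studied, 0 had Lap2alpha at 16 cycles and 1 at 20 cycles, near the 7.61% and 19.8% of all genes. Tmpo itself had no Lap2alpha at 16 cycles and 176 bp at 20 cycles, with 1016 and 1732 bp under BRG1 and 828 and 1588 under CHD4. Lmna, Smarca4 and Chd4 had none at either length, while BRG1 covered 1616, 1052 and 1707 bp of them at 20 cycles.

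Gene lists put members of one function side by side, beside the 7.61% and 19.8% of all genes that had Lap2alpha. The lists were drawn up with earlier results of these data known. Of 36 histone H1, H3 and H4 genes, which encode linker and core histones, 27 had Lap2alpha at 16 cycles, 26 of them with both remodellers, and 24 at 20 cycles, 23 with both. Over the whole list 28 and 30 genes had both remodellers. These genes lie in clusters: their counts rest on 35 and 31 Lap2alpha regions, and 10 and 7 of the genes shared a region with another gene. H1f2, a linker histone gene on chromosome 13, had 1361 and 974 bp under Lap2alpha, 972 and 1496 under BRG1 and 914 and 1082 under CHD4.

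Of 27 immediate early and AP-1 genes, which respond to growth factors within minutes, 14 had Lap2alpha at 16 cycles and 19 at 20 cycles. Both remodellers were there at 11 of the 14 and at all 19, and over the whole list at 15 and 26 of the 27. Egr1, a zinc finger transcription factor of this list, had 1178 and 1086 bp under Lap2alpha, 809 and 1495 under BRG1 and 1952 and 2839 under CHD4. Of 30 contractile and YAP target genes, 6 had Lap2alpha at 16 cycles, all with both remodellers, and 18 at 20 cycles, 16 with both and 2 with BRG1 only, where 13 and 28 of the 30 had both remodellers. Ccn2, a secreted matrix-associated protein, had 1313 and 938 bp under Lap2alpha.

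Matrix and fibroblast genes with Lap2alpha mostly had both remodellers, as did 47.5% and 90% of the whole list. Of 40 genes, 8 had Lap2alpha at 16 cycles, 7 with both remodellers and 1 with BRG1 only, and all 12 at 20 cycles had both. Fn1, which encodes fibronectin, had 1394 and 876 bp under Lap2alpha, 1582 and 1875 under BRG1 and 1318 and 1534 under CHD4. Tnc, which encodes tenascin C, changed class, from BRG1 only at 16 cycles, with 264 bp under Lap2alpha, to both at 20 cycles, with 438 bp. Sparc and Vim had both remodellers at each length.

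Genes of general cell function had Lap2alpha mostly with both remodellers, or at 16 cycles with BRG1. Of 25 housekeeping genes 7 and 16 had Lap2alpha, 6 and 16 of them with both, where 12 and 23 of the 25 had both remodellers. Of 82 cytoplasmic ribosomal protein genes 21 and 45 had Lap2alpha. At 16 cycles these split into 10 with both and 10 with BRG1 only, and at 20 cycles 44 had both, where 21 and 77 of the 82 had both remodellers. Of 20 heat shock and chaperone genes 5 and 10 had Lap2alpha, and of 19 p53 targets 2 and 7, where Plk2, a stress-induced kinase, had 2271 and 978 bp.

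Lists of the remodeller complexes and of the nuclear envelope were short, and most of their shares lay above those of all genes. Both remodellers were at 13.3% of NuRD, 26.9% of SWI/SNF and 42.3% of nuclear envelope genes at 16 cycles, and at 86.7%, 92.3% and 88.5% at 20 cycles. Over all genes both were at 15.9% and 51.4%, and Lap2alpha was at 19.8% and 27.1% of genes with both. None of 15 NuRD subunit genes had Lap2alpha at 16 cycles and 5 (33.3%) had it at 20 cycles, 4 with both. Of 26 SWI/SNF subunit genes 3 (11.5%) and 8 (30.8%) had Lap2alpha, with Pbrm1 at 526 and 928 bp. Of 26 nuclear envelope and lamina genes 4 (15.4%) and 6 (23.1%) had it, including Syne1 (nesprin-1) with Lap2alpha alone at both lengths, at 122 and 149 bp. The other counts were 6 and 7 of 40 cell cycle genes, 1 and 8 of 27 TGF-beta and BMP genes, 0 and 8 of 39 HOX genes, 35 and 79 of 378 zinc finger genes and 3 and 6 of 28 long neuronal genes. For keratinocyte genes they were 1 and 1 of 20, for endothelial genes 1 and 1 of 14, for leukocyte genes 0 and 3 of 16 and for muscle, adipocyte and melanocyte genes 0 and 2 of 19.

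Olfactory receptor genes, which are read in sensory neurons of the nose, made up 13.3% of the class with Lap2alpha alone at 16 cycles and 14% at 20 cycles. They were 7.93% and 13.2% of all genes with neither remodeller, close to the share in the class at 20 cycles. Of 1110 such genes 86 had Lap2alpha at 16 cycles (7.75%) and 128 at 20 cycles (11.5%). Of these, 83 and 108 had Lap2alpha alone, and 2 and 3 had both remodellers. With or without Lap2alpha, 97.1% and 87.8% of the 1110 genes had neither remodeller. Of 355 vomeronasal receptor genes 13 (3.66%) and 18 (5.07%) had Lap2alpha, below the shares of all genes, and 11 and 13 of them had it alone. With or without Lap2alpha, 97.2% and 93.2% of the 355 had neither remodeller. They made up 1.77% and 1.68% of the class with Lap2alpha alone, less than their 2.54% and 4.48% of all genes with neither remodeller.

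Lap2alpha and the remodellers were spread differently over the chromosomes. The X chromosome held 21.3% of Lap2alpha regions at 16 cycles and 10.7% at 20 cycles, against 6.31% of the span of all chromosomes. It held 8.93% and 3.26% of CHD4 regions and 4.09% and 2.87% of BRG1 regions. The WT lamin A/C lists, from antibodies 3A6 and E1, had 13.3% and 18.5% of regions on X at 16 cycles and 6.62% and 6.94% at 20 cycles, while the Lap2alpha KO lists ranged from 2.46% to 7.29%. The excess at 16 cycles was thus shared in part by CHD4 and lamin A/C and was lower in the 20-cycle lists. Chromosome 8 held 11% and 9.09% of Lap2alpha regions and chromosome 3 10.3% and 8.01%, as the plot by chromosome shows, against shares of 5.81% and 6.48%, and of 7.74% and 7.02%, of BRG1 regions.

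**Figure D5:**
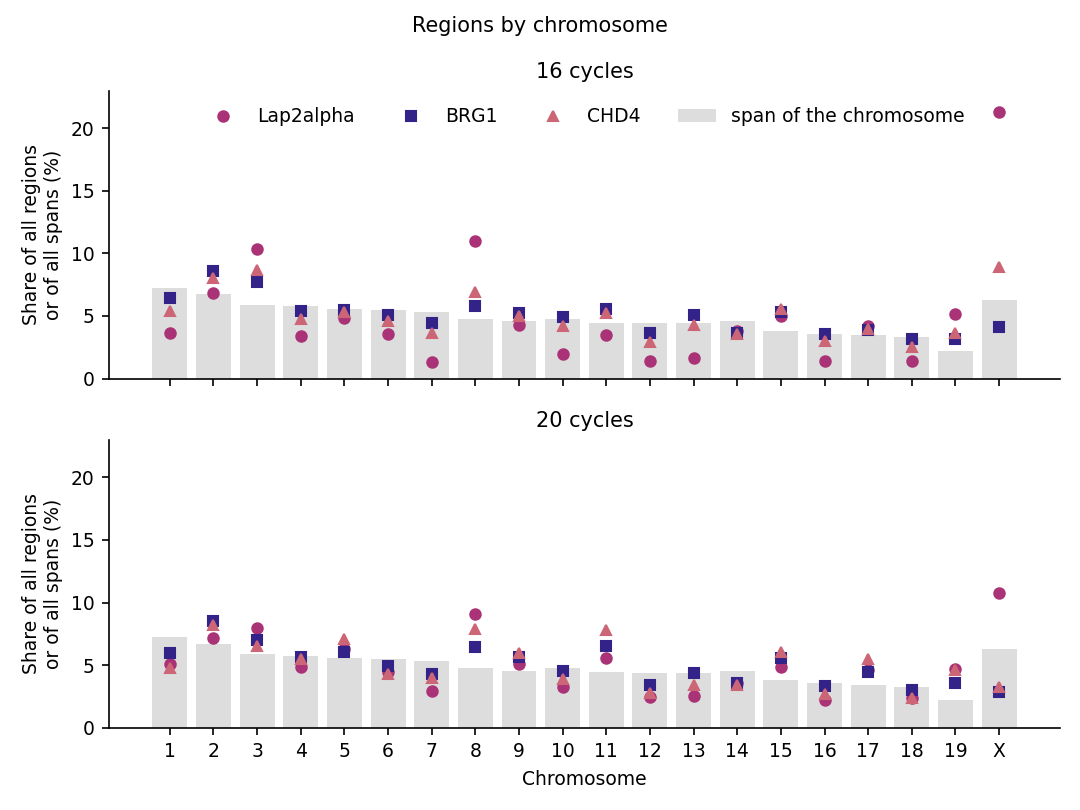
Share of each list's regions (%) on each chromosome for Lap2alpha, BRG1 and CHD4 at 16 cycles (top) and 20 cycles (bottom), with grey bars for the chromosome's share of the covered span. Lap2alpha stands at 21.3% and 10.7% on the X chromosome, above BRG1 at 4.09% and 2.87%.

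X-linked genes lacked remodellers more often than autosomal genes, with Lap2alpha or without. Neither remodeller was at 76.1% of all X-linked and 61% of all autosomal genes at 16 cycles, and at 54% and 32% at 20 cycles. Of the 222 X-linked Lap2alpha genes at 16 cycles, 134 had Lap2alpha alone (60.4%, 53.8 to 66.6), against 488 of 1443 on autosomes (33.8%, 31.4 to 36.3). At 20 cycles it was 83 of 275 (30.2%, 25.1 to 35.9) against 691 of 4068 (17.0%, 15.9 to 18.2). Lap2alpha regions with CHD4 and no BRG1 were often X-linked at 16 cycles, where 35.4% of them were on X, against 9.43% of those that met both. At 20 cycles the shares were 8.4% and 4.32%.

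The classes differed in promoter sequence, which the grouping did not use. Promoters of genes with Lap2alpha and both remodellers had a median GC content of 58.7% at 16 cycles and 60.7% at 20 cycles, against 46.7% and 49% with Lap2alpha alone and 56.3% over all genes. Their ratio of observed to expected CpG was 0.765 and 0.779, against 0.24 and 0.246 with Lap2alpha alone and 0.577 over all genes. SP/KLF matches were in 59.5% and 66.4% of promoters with both, 23.5% and 22.7% with Lap2alpha alone and 46.3% of all. TATA boxes were more frequent with Lap2alpha alone than with both, with 16.1% and 9.14% with both, 22.5% and 20.9% with Lap2alpha alone and 13.3% of all. ETS matches were in 27.7% and 32.1% against 10.7% and 8.44%, and AP-1 matches in 6.93% and 5.32% against 10.5% and 11.3%.

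Much the same GC and CpG content was found at genes with both remodellers where Lap2alpha was not listed. Genes with both remodellers and no Lap2alpha had a median GC content of 60.3% and 61% and a CpG ratio of 0.774 and 0.766. SP/KLF matches were in 62.1% and 64.1% of their promoters. TATA boxes were in 8.4% and 6.91%, less often than the 16.1% and 9.14% with Lap2alpha and both remodellers. Genes with neither remodeller and no Lap2alpha had a GC content of 53.7% at 16 cycles, above the 46.7% of genes with Lap2alpha alone, and 47.7% at 20 cycles, below the 49% of genes with Lap2alpha alone. Their CpG ratio was 0.364 and 0.214, against 0.24 and 0.246 with Lap2alpha alone. SP/KLF matches were in 36.7% and 22.3% of their promoters, against 23.5% and 22.7%. Without olfactory and vomeronasal receptor genes, GC content was 55.3% with none of the 3 proteins and 48.8% with Lap2alpha alone at 16 cycles, and 50.3% and 50.8% at 20 cycles. Thus the lower GC content of genes with Lap2alpha alone, relative to genes with none of the 3 proteins, was present at 16 cycles and not at 20 cycles.

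The place of Lap2alpha within the gene also differed by class, among genes with a known strand. With both remodellers, Lap2alpha was at the gene start in 70.3% of genes at 16 cycles and 74.2% at 20 cycles and at the other end in 48.7% and 37.7%. With Lap2alpha alone it was at the start in 46.8% and 55.5% and at the other end in 65.7% and 58.0%. Median gene length was 23.6 and 19.7 kb with both and 16.2 and 14.3 kb with Lap2alpha alone, against 17.2 kb over all genes. Without olfactory and vomeronasal receptor genes it was 23.7 and 19.7 kb with both, 21.5 and 19.2 kb with Lap2alpha alone and 19.1 kb over all genes.

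Lamin A/C regions were more frequent at genes with Lap2alpha alone. In the WT lists of antibody 3A6, 22.7% of these genes had lamin A/C at a gene end at 16 cycles and 30.6% at 20 cycles. The shares were 3.92% and 1.31% with both remodellers, and 5.41% and 20.0% for genes with none of the 3 proteins. For antibody E1 they were 14.8% and 24.9% with Lap2alpha alone, 2.18% and 0.918% with both and 2.39% and 15.6% with none. On autosomes alone the 3A6 shares were 23.6% and 31.4% with Lap2alpha alone and 5.5% and 21.1% with none. In the KO lists the 3A6 shares were 31.99% and 43.15% with Lap2alpha alone and 28.05% and 9.9% with both. They were 19.63% and 27.07% with none of the 3 proteins and 22.11% and 17.93% over all genes. At 16 cycles the class with both was thus also above all genes in the KO 3A6 list. The KO shares of E1 were 28.0% and 44.3% with Lap2alpha alone against 9.3% and 2.79% with both. With none of the 3 proteins they were 8.13% and 28.41%, and over all genes 7.02% and 13.36%. Counted by Lap2alpha region at 16 cycles, WT 3A6 was at 17.0% of those without a remodeller and 7.81% of those with both. For WT E1 that order turned, with 3.93% and 4.69%. Lists from the same cells and sonication length may share material, and this was not tested.

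Lap2alpha regions without a remodeller also lay in sparser surroundings. Of these, 1.88% at 16 cycles and 2.57% at 20 cycles were at a gene end, against 7.63% and 23% of those that met both remodellers. The 1 Mb bin around them held a median of 4 and 5 protein-coding genes, against 6 and 10. Counted by gene the classes were close, with medians of 12 and 15 for Lap2alpha alone and 11 and 16 with both. Regions that met both remodellers were found again in the other Lap2alpha list in 18.2% and 12.8% of cases, against 10.8% and 8.25% of those that met neither.

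In cells without Lap2alpha (Lap2alpha KO), BRG1 regions were listed at most places where the 3 proteins met. Of Lap2alpha regions that met both remodellers in WT, 87.2% at 16 cycles and 79.8% at 20 cycles overlapped a KO BRG1 region, against 51.5% and 25.6% of those that met BRG1 only and 3.12% and 5.67% of those that met neither. At gene ends 97.8% and 95.6% of genes with Lap2alpha and both remodellers had KO BRG1, as had 97.8% and 93.8% of genes with both remodellers and no Lap2alpha. Over all WT BRG1 regions, 74.8% with Lap2alpha and 76.3% without it overlapped a KO BRG1 region at 16 cycles, and 51.2% and 38.9% at 20 cycles. At 16 cycles the regions with Lap2alpha had the lower share in each of 4 width classes, for example 35.7% against 48.6% in the narrowest. At 20 cycles they had the higher share in each, for example 89.8% against 84.2% in the widest. The order thus turned between the sonication lengths. For CHD4 at 16 cycles 59.1% with Lap2alpha and 61.9% without it overlapped a KO region, and the KO CHD4 list at 20 cycles was much shorter (7283 regions), so that 5.43% and 2.75% did.

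The classes held only in part between sonication lengths. Lap2alpha was at 611 genes in both lists, which is 36.7% of the genes at 16 cycles and 14.1% of those at 20 cycles. Of all genes, 19.8% had Lap2alpha at 20 cycles and 7.61% at 16 cycles. Counted by region, 11.75% of Lap2alpha regions at 16 cycles and 8.67% at 20 cycles overlapped a region of the other Lap2alpha list. Of the 611 genes, 413 (67.6%) kept their class: 318 with both remodellers, 87 alone, 7 with BRG1 only and 1 with CHD4 only. Of the 622 genes with Lap2alpha alone at 16 cycles, 231 (37.1%) had a remodeller in a 20-cycle list, where 47% of all genes without a remodeller at 16 cycles did. Of the 774 genes with Lap2alpha alone at 20 cycles, 36 (4.65%) had a remodeller in a 16-cycle list, and 738 had none in any of the 4 lists. Of all 7387 genes with neither remodeller at 20 cycles, 7208 had none in any of the 4 lists, which is a larger part. Few genes without a remodeller at 20 cycles had one at 16 cycles, with Lap2alpha or without. Lap2alpha lay on the promoter bases themselves at both lengths at 47 of 258 genes with both remodellers and 5 of 74 genes with Lap2alpha alone.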

How the data were processed

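For each library the authors deposited genomic intervals with chromosome, start and end in base pairs and no height or significance, so no threshold could be applied. Per the submitters' processing notes, coordinates are on GRCm38 and the tools were MACS2 2.1.4, HOMER 4.11.1, bedtools, deepTools and SAMtools. What each did, the calling threshold, the control and any pooling were not given in the sources used here. Intervals of width 0 (17 to 128 per list) and 1 mitochondrial interval were left out. Overlapping intervals of a list were to be merged, but these 6 lists held none. Input libraries were not analysed here.

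Groups came from the sample titles, with 1 library per group, so differences have no test and no p-value. Overlap meant at least 1 bp. A gene had a protein when a region overlapped a window of 1 kb to each side of either end of the gene. Gene starts alone were planned, provided that the strand was known for 80% of genes. It was known for 79.9%, so both ends were used and gene starts became an alternative. Shares have 95% Wilson intervals, which cover counting error only and are narrower than the real error, since neighbouring genes and regions are not independent. The shift of 10 kb was averaged over both directions. The members and the 22 gene lists were chosen with earlier results of these data known. Named genes were those in the same class at both lengths, up to 8 a class, ranked by the smaller Lap2alpha coverage of the gene-end windows, and up to 4 members of each list by the same rank. Predicted, olfactory, vomeronasal and Zfp genes were counted only, and Tmpo, Lmna, Smarca4 and Chd4 were always included. Promoters were those of the first 2 genes of the classes with both remodellers and with Lap2alpha alone. Gstm2, of the class with BRG1 only, was added after its values were seen. Alternatives covered the gene window, overlap rule, equal numbers of the widest regions, joined remodeller lists and autosomes. Interval functions were tested on simulated intervals. Python 3.11.15, numpy 2.4.6 and pandas 2.3.3 were used.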

Additional observations from a re-analysis of the deposited data

How the results depend on the processing

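The 8 main shares and gaps were recomputed under 52 alternatives, of which 24 moved them by less than their counting interval and 28 by more. Among the alternatives for the gaps, 0 changed the sign. A share cannot be negative, so the other alternatives could not have changed sign. For each of the 8, an alternative counted among the 24 used the intervals without merging. It could not move the value, since the lists compared held no overlapping intervals. Genes with both remodellers made up 65.9% of Lap2alpha genes at 16 cycles and 83.3% at 20 cycles over gene bodies, 46.2% and 73.9% at gene starts (1 kb), 63.7% at 16 cycles with the remodeller lists of both lengths, 44.9% at 16 cycles on autosomes and 66% at 20 cycles with equal numbers of the widest regions. Genes with Lap2alpha alone made up 16.4% and 6% over gene bodies, 32% and 16.5% at gene starts (1 kb), 16.6% at 20 cycles within 5 kb of gene starts, 23.5% at 16 cycles with both lengths' remodeller lists, 33.8% at 16 cycles on autosomes and 23.8% at 20 cycles with equal numbers. Lap2alpha regions free of both remodellers made up 84.6% and 77.4% when 50% of the region had to be covered, 84.6% and 84.1% with equal numbers, 73% and 73.2% with both lengths' lists and 82.5% and 74% on autosomes. The gap between genes with both and with neither was 48.5 and 51 points over gene bodies, 12.8 and 15.4 points at gene starts (1 kb) and 3.81 points at 16 cycles with both lengths' lists. The alternatives for this gap and the gene start at 1 kb were chosen after seeing the data. Apart from the joined lists, where more genes count as having a remodeller, and the gene bodies, where the windows are longer, the cause was not tested. No paired analysis was possible because each group is 1 library. Read depth is unknown, so absence from a list does not show absence of the protein.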
